A study of Mus musculus with 8 samples.

Results

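The 38 genes described here encode the best known neuropeptide precursors of the mammalian brain and the granins, the proteins that fill secretory granules. They were taken from a list of gene symbols. Of the 38, 37 were matched to one of the 49585 genes in the count table, and 35 had a count in at least 3 of the 8 libraries and were tested among 23113 genes. The expression of *Kiss1* was not analysed here, *Npff* was listed at 0 counts in all 8 brains, and *Ucn* had 1 count in 1 control brain. Of the exon length of *Npff*, 32.6% is shared with *Gm28047* on the same strand, so any reads there could not be assigned with certainty.

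RNA was measured by RNA-seq in whole brains of newborn B × C females, that is F1 hybrids with a C57BL/6J (B) mother and a CAST/EiJ (C) father, labelled as postnatal day 1. Dams drank water with 0 ppm or 50 ppm CdCl2 (cadmium chloride, Cd) from before mating until birth. Each dose was represented by 4 brains, and each pup came from a separate litter. All 8 pups were female and carried the same hybrid genotype, exposure reached them only through the dam, and each library was made from poly(A) RNA of 1 homogenized brain, so that every cell type of the brain, and any tissue removed with it, contributed to each value.

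Neuropeptides are cut from larger precursors inside the regulated secretory pathway. Granins such as chromogranin A and B help to pack the cargo of dense core granules, prohormone convertases and carboxypeptidase E trim it, and the peptides are released upon stimulation to act on G protein-coupled receptors. Some precursors, such as those of somatostatin and neuropeptide Y, are made by neurons spread over the forebrain, whereas others, such as those of MCH, orexin and oxytocin, are made by small groups of hypothalamic neurons.

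The libraries held between 22916434 and 30708087 counts. CPM are counts divided by the TMM-scaled library size, and the limit set by 3 counts lay between 0.0980 and 0.132 CPM, which covers counting error only. Of 11 pan-neuronal marker genes, *Tubb3* was listed at 0. The reason was not tested, and a gene listed at 0 here need not lack RNA. The 11 genes summed to between 6956 and 8018 CPM in the 8 brains. The 2 doses overlapped in this sum. Of 10 tested, 2 neurofilament genes, *Nefl* and *Nefm*, had an unadjusted edgeR p under 0.05, against 3.75% of all genes tested. Their log2 fold changes were 0.48 and 0.61, and *Nefm* did not overlap between doses. Of the exon length of *Nefl*, 32.8% lies opposite *Nefm*, and 19.2% of that of *Nefm* lies opposite *Nefl*. Reads there could not be assigned with certainty.

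At birth, levels of the 35 tested genes spanned nearly 3 orders of magnitude when CPM were divided by the exon length of the gene in kb. *Sst*, the precursor of somatostatin, a peptide of inhibitory interneurons, had the highest level at 102 ± 11.9 CPM per kb (SD, n = 8). The granin *Scg2* followed at 79.3 ± 12.3 CPM per kb, and its lowest brain lay above the highest brain of the granin *Chgb*, at 49.2 ± 3.55 CPM per kb. *Sst* exceeded *Scg2* in 8 of 8 brains, although their ranges overlapped, and *Chgb* exceeded *Npy* (41.4 ± 5.52 CPM per kb) in 8 of 8 brains. Below them came *Chga* at 38.6 CPM per kb, *Nts* at 32.1 CPM per kb, *Vgf* at 21.3 CPM per kb and *Penk* at 17.6 CPM per kb.

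Among these neighbours, the order was not the same in every brain: *Npy* exceeded *Chga* in 7 of 8 brains, and *Penk*, the precursor of the enkephalins, exceeded *Cck* (17.0 CPM per kb), the precursor of cholecystokinin, in 5 of 8. *Avp*, the precursor of vasopressin, was the hypothalamic precursor with the highest level, at 12.4 ± 5.80 CPM per kb. *Oxt*, the precursor of oxytocin, reached only 1.03 ± 0.522 CPM per kb. At the lower end lay *Vip* at 0.177 CPM per kb, *Nmu* at 0.168 CPM per kb and *Ucn3* at 0.122 CPM per kb, genes with at most 29, 7 and 9 counts in any brain. *Nmu* was at 0 counts in 0 ppm replicate 1.

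**Figure D1:**
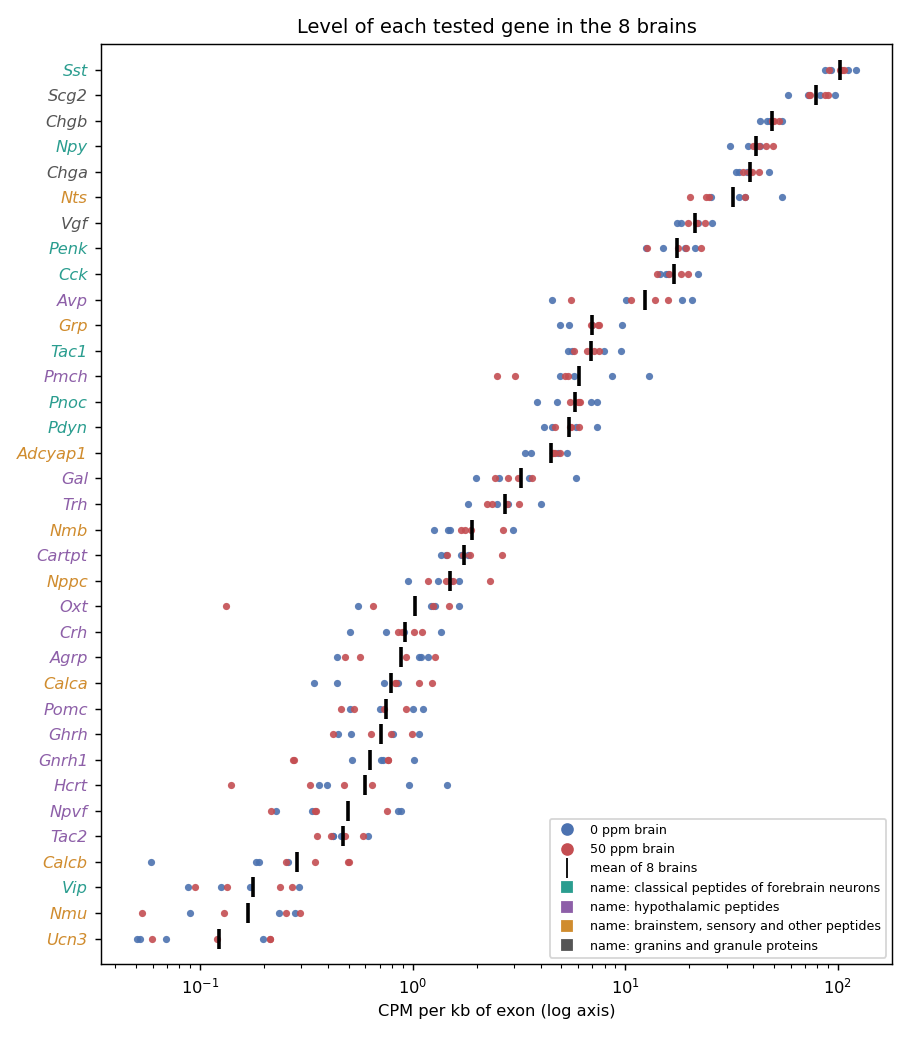
Level of each of the 35 tested genes in CPM per kb of exon (log axis), with 1 point per brain (blue, 0 ppm; red, 50 ppm) and a bar at the mean of the 8 brains; gene names are coloured by role, and a brain at 0 counts (*Nmu*, 0 ppm replicate 1) has no point. *Sst* lies at the top at 102 CPM per kb and *Ucn3* at the bottom at 0.122 CPM per kb.

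To address whether maternal Cd exposure altered these transcripts, the 4 brains of the 50 ppm dose were compared with the 4 of the 0 ppm dose. When edgeR's quasi-likelihood p-values were adjusted by Benjamini-Hochberg across all genes, 0 of the 35 genes had an adjusted p under 0.05, where 0.0173% of all genes tested did. At an unadjusted p under 0.05 there were 4 of 35 genes (11.4%) against 3.75% of all genes tested. *Pmch* and *Nts* had the lower values at 50 ppm (1.44% of all genes), and *Calca* and *Calcb* the higher ones (2.31%). DESeq2 gave 0 adjusted calls as well, with 3 genes at an unadjusted p under 0.05. In none of the 35 genes did the CPM of the 2 doses lie apart without overlap, against 2.09% of all genes tested. The log2 fold change was above 0 in 19 genes and below 0 in 16, where 49% of all genes were above 0, and its median was 0.03, against -0.00 for all genes tested.

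**Figure D2:**
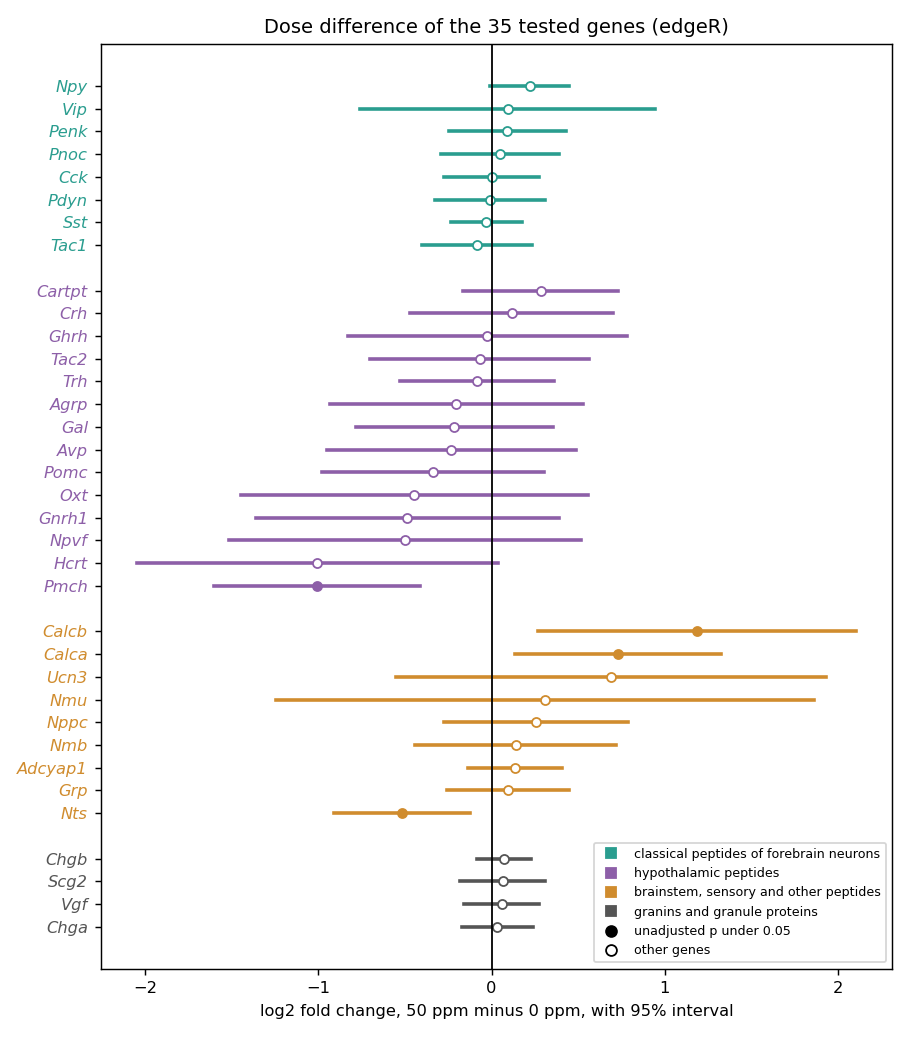
Log2 fold change (50 ppm minus 0 ppm) of the 35 tested genes with its 95% interval from edgeR, ordered within each role; filled points mark an unadjusted p under 0.05. *Pmch*, *Nts*, *Calca* and *Calcb* are the 4 filled points, and 12 of the 14 hypothalamic genes lie left of 0.

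The hypothalamic precursors were the group whose values most often lay lower at 50 ppm. Of 14 tested, 12 had a log2 fold change below 0, with a median of -0.22, where 49% of all genes tested were above 0. In edgeR, 1 of 14 (7.14%) had an unadjusted p under 0.05, against 3.75% of all genes tested. The doses overlapped in each of the 14 genes. Without 0 ppm replicate 3, 8 of 14 were below 0 and the median was -0.08. Without 50 ppm replicate 3, 10 of 14 were below 0 and the median was -0.06.

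*Pmch*, on chromosome 10 (GRCm38 chr10:88091072-88092375, plus strand), encodes the precursor of melanin-concentrating hormone (MCH), a peptide of lateral hypothalamic neurons that promotes feeding and sleep. *Pmch* had 4.30, 3.68, 6.47 and 9.68 CPM in 0 ppm replicates 1 to 4, and 2.28, 1.861, 3.89 and 4.01 CPM in 50 ppm replicates 1 to 4. The doses overlapped only in that 2 exposed brains, replicates 3 and 4, lay above the lowest control brain. Control brains averaged 6.03 ± 2.71 CPM (SD, n = 4), and exposed brains 3.01 ± 1.10 CPM (SD, n = 4).

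The log2 fold change of *Pmch* was -1.01 (SE 0.28, 95% interval -1.60 to -0.41). Its unadjusted p in edgeR's quasi-likelihood test was 0.00223 and its Benjamini-Hochberg adjusted p was 0.768. An exact two-sided permutation test gave p = 0.0857, where the smallest value 4 against 4 allows is 0.0286. Without the filter on low counts, edgeR gave an unadjusted p of 6.38e-05 and an adjusted p of 0.0368 at the same log2 fold change. No other alternative gave *Pmch* an adjusted p under 0.05, and the cause was not tested. Without 0 ppm replicate 4, the highest brain, the log2 fold change was -0.69.

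Part of *Pmch*, 58.1% of its exon length, lies opposite exons of *Parpbp* on the other strand. Whether the authors' counting used strand is not given in the sources used here, so reads in the shared stretch could not be assigned with certainty. *Parpbp* itself averaged 3.90 ± 0.800 CPM in control and 3.94 ± 0.943 CPM in exposed brains (SD, n = 4 each). In the alignment to the C genome, *Pmch* had 126, 98, 198 and 250 counts at 0 ppm and 65, 53, 109 and 91 counts at 50 ppm, with a log2 fold change of -0.99 (SE 0.29). The B genome gave 126, 99, 198 and 250 counts and 65, 53, 109 and 91 counts. In the C alignment the edgeR adjusted p was 0.819.

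*Hcrt* encodes the precursor of the orexins, made by neurons that lie among the MCH neurons and promote wakefulness. It was singled out after its values had been seen. *Hcrt* had 0.273, 0.298, 0.718 and 1.08 CPM at 0 ppm, against 0.105, 0.246, 0.357 and 0.485 CPM at 50 ppm, from 3 to 28 counts. The same control brains, replicates 3 and 4, were the highest for *Hcrt* and *Pmch*. The log2 fold change was -1.01 (SE 0.50, 95% interval -2.05 to 0.04), with an unadjusted edgeR p of 0.0584 and a Benjamini-Hochberg adjusted p of 0.999. Without 0 ppm replicate 4 it was -0.56.

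**Figure D3:**
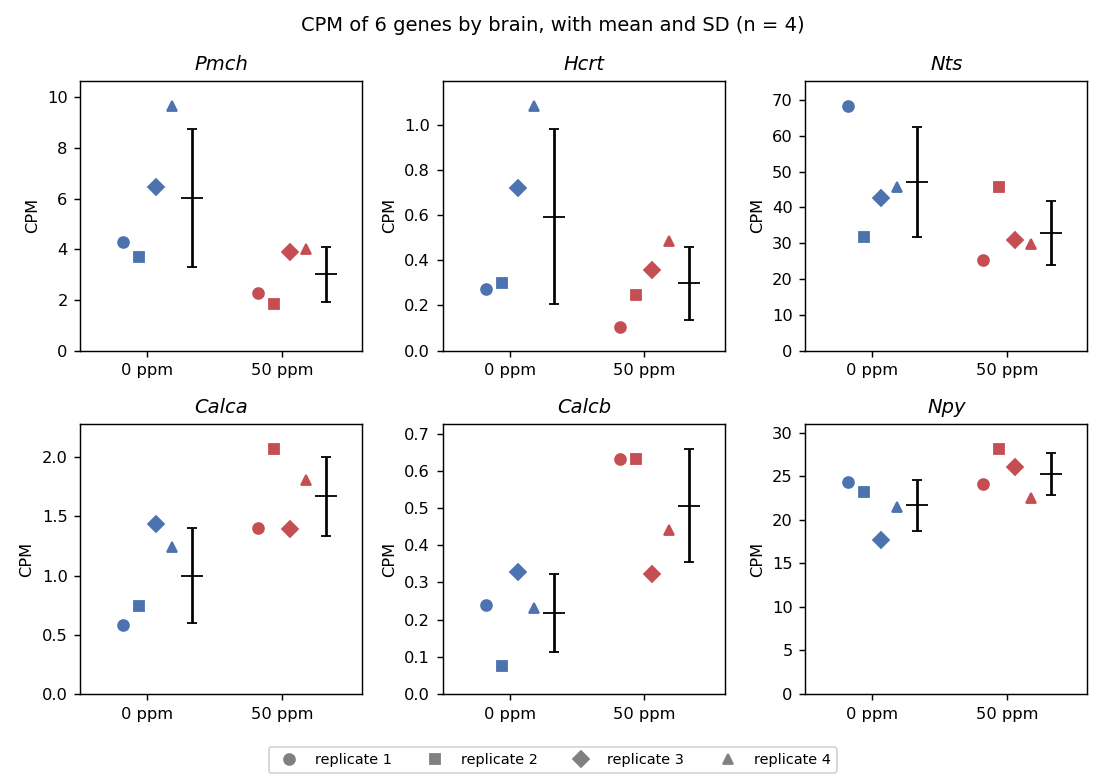
CPM of 6 genes in each brain, with a symbol per replicate (blue, 0 ppm; red, 50 ppm) and the mean ± SD of each dose (n = 4) in black; each axis starts at 0. *Pmch* and *Hcrt* were highest in 0 ppm replicates 3 and 4, *Nts* in 0 ppm replicate 1, and the doses overlap in all 6 genes.

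The magnocellular hormones differed strongly between single brains. *Avp* had 5.84, 2.60, 10.7 and 11.8 CPM at 0 ppm, against 6.14, 9.13, 3.21 and 7.98 CPM at 50 ppm. Both the lowest and the highest brain were controls, and the log2 fold change was -0.23 (SE 0.34). *Oxt* ranged from 0.298 to 0.891 CPM at 0 ppm and from 0.0714 to 0.794 CPM at 50 ppm, with a log2 fold change of -0.45 (SE 0.48).

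*Gal* encodes galanin, a peptide of many hypothalamic and brainstem neurons. It had 2.01, 1.56, 4.60 and 2.79 CPM at 0 ppm, against 2.21, 2.88, 1.93 and 2.47 CPM at 50 ppm. The exposed brains fell inside the control range, and the log2 fold change of -0.22 (SE 0.27) became 0.16 without 0 ppm replicate 3.

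*Cartpt*, the precursor of the CART peptides, which curb feeding, and *Crh*, the precursor of corticotropin-releasing hormone, were the 2 hypothalamic genes with a log2 fold change above 0. *Cartpt* had 1.84, 2.16, 2.32 and 1.74 CPM at 0 ppm, against 1.859, 3.37, 2.21 and 2.38 CPM at 50 ppm. Its highest value was in 50 ppm replicate 2, and the log2 fold change was 0.28 (SE 0.21). *Crh* averaged 1.16 ± 0.475 CPM in control and 1.27 ± 0.152 CPM in exposed brains (SD, n = 4 each).

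The arcuate and releasing hormone genes were near 1 CPM or below, except *Trh*. *Pomc*, the precursor of melanocortins and beta-endorphin, averaged 1.10 ± 0.367 CPM in control and 0.877 ± 0.281 CPM in exposed brains (SD, n = 4 each). *Agrp*, which encodes an antagonist of melanocortin receptors, had 0.959 ± 0.345 and 0.826 ± 0.374 CPM. Of the exon length of *Agrp*, 11.3% is shared with *Ctcf* or *Gm5914* on each strand, so part of its reads could not be assigned. For both genes, the difference was smaller than the SD of either dose. *Trh*, the precursor of thyrotropin-releasing hormone, had 3.85 ± 1.26 and 3.65 ± 0.586 CPM. *Gnrh1*, *Npvf*, *Ghrh* and *Tac2* ranged from 4 to 26 counts per brain, and their log2 fold changes lay between -0.50 and -0.02, with standard errors between 0.30 and 0.48.

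Hypothalamic transcription factor genes also had lower values at 50 ppm. Of 15 tested, 15 had a log2 fold change below 0, with a median of -0.38. In edgeR, 5 were lower at an unadjusted p under 0.05, against 1.44% of all genes tested, and 0 had an adjusted p under 0.05. The doses overlapped in each of the 15 genes and in their sum. The summed level of these genes was 112, 137, 197 and 191 CPM at 0 ppm, against 97.1, 149, 123 and 129 CPM at 50 ppm. *Lhx9* held the largest share of this sum, and *Six3* was also on the telencephalon list. The summed hypothalamic peptide precursors were 23.8, 16.4, 38.1 and 37.4 CPM and 21.01, 27.9, 18.6 and 27.0 CPM in the same brains. Control replicates 3 and 4 were the highest brains in both sums. In whole brain RNA, fewer cells of a type and less RNA per cell cannot be told apart, and the part of the regional markers in these differences was not tested.

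The brainstem, sensory and other peptides had 8 of 9 tested genes with a log2 fold change above 0, a median of 0.26, and 3 genes at an unadjusted p under 0.05, against 3.75% of all genes tested. Of these 3, *Calca* and *Calcb* had the higher values at 50 ppm and *Nts* the lower. Leaving out single libraries gave 7 or 8 of 9 above 0 and medians between 0.12 and 0.50.

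*Calca* and *Calcb* lie near each other on chromosome 7 (GRCm38 chr7:114631478-114636357, minus strand, and chr7:114718643-114723365, plus strand). Both encode calcitonin gene-related peptides (CGRP), vasodilators of sensory, brainstem and motor neurons, and *Calca* also gives rise to calcitonin. *Calca* had 0.580, 0.744, 1.44 and 1.24 CPM at 0 ppm, against 1.40, 2.07, 1.39 and 1.81 CPM at 50 ppm. Control replicates 1 and 2 were the lowest brains, and control replicate 3 lay above 2 exposed brains. *Calca* had a log2 fold change of 0.73 (SE 0.28), the unadjusted edgeR p was 0.0187, the Benjamini-Hochberg adjusted p was 0.999, and an exact two-sided permutation test gave p = 0.0857.

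*Calcb* had 7, 2, 10 and 6 counts at 0 ppm and 18, 18, 9 and 10 counts at 50 ppm, that is 0.239, 0.0744, 0.327 and 0.232 CPM against 0.631, 0.632, 0.321 and 0.441 CPM. A single pair overlapped, control replicate 3 and exposed replicate 3, and control replicate 2 was under the limit of 3 counts. *Calcb* had a log2 fold change of 1.19 (SE 0.44), the unadjusted edgeR p was 0.0143, the Benjamini-Hochberg adjusted p was 0.999, and the exact two-sided permutation p was 0.0571. The unadjusted p stayed under 0.05 in 14 of 14 alternatives for *Calcb* and in 11 of 14 for *Calca*. For *Calca* it was 0.0666 without 0 ppm replicate 1, 0.0544 without 0 ppm replicate 2 and 0.0695 without 50 ppm replicate 2.

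Hindbrain and spinal cord marker genes had higher values at 50 ppm, with 13 of 15 log2 fold changes above 0. In edgeR, 12 of 15 were higher at an unadjusted p under 0.05, against 2.31% of all genes tested, and 0 at an adjusted one. They summed to 20.5, 50.3, 101 and 117 CPM at 0 ppm, against 245, 142, 106 and 127 CPM at 50 ppm. Sensory ganglion markers summed to 18.02, 20.2, 32.1 and 29.3 CPM at 0 ppm and to between 33.4 and 38.5 CPM at 50 ppm, without overlap. Control replicates 1 and 2, the brains with the lowest *Calca* values, were lowest in both sums. Of the ganglion list, 1 of 10 tested genes had an unadjusted edgeR p under 0.05, against 3.75% of all genes tested, and 8 of 10 were above 0. *Pou4f1* and *Prph*, which brain neurons also express, made most of the sum. The part of these lists in the *Calca* and *Calcb* differences was not tested.

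*Nts*, on chromosome 10 (GRCm38 chr10:102481756-102490486, minus strand), encodes neurotensin, a peptide of forebrain, midbrain and gut that lowers body temperature and modulates dopamine neurons. It had 68.4, 31.7, 42.6 and 45.7 CPM at 0 ppm, against 25.2, 45.7, 30.9 and 29.9 CPM at 50 ppm. Control replicate 1 stood above the other 7 brains, while exposed replicate 2 equalled control replicate 4 to the digits given. The log2 fold change was -0.52 (SE 0.19), the unadjusted edgeR p was 0.0129, the Benjamini-Hochberg adjusted p was 0.999, and the exact two-sided permutation p was 0.171.

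Without 0 ppm replicate 1 the log2 fold change of *Nts* was -0.28 and the unadjusted edgeR p 0.0936. DESeq2 gave an unadjusted p of 0.0790 and edgeR's robust fit 0.123, and the unadjusted p was under 0.05 in 9 of 14 alternatives. Telencephalon markers were lower at 50 ppm in 15 of 16 genes. In edgeR, 9 were lower at an unadjusted p under 0.05, against 1.44% of all genes tested, and 0 at an adjusted one. The sum of these markers was also highest in control replicate 1. Control replicate 2 came next in the sum but had the lowest control *Nts* value, 31.7 CPM. The markers summed to 1327, 1255, 917 and 1065 CPM at 0 ppm and to 910, 991, 1071 and 1034 CPM at 50 ppm. Their part in the *Nts* difference was not tested.

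Of the remaining genes in this group, *Adcyap1* encodes PACAP, a peptide that raises cAMP in its target cells. It had 13.6, 12.8, 20.1 and 18.2 CPM at 0 ppm, against 17.7, 18.7, 17.3 and 17.3 CPM at 50 ppm. The exposed brains were close together and inside the control range, with a log2 fold change of 0.14 (SE 0.13). *Grp*, the precursor of gastrin-releasing peptide, had 9.97 ± 3.12 and 10.6 ± 0.452 CPM (SD, n = 4 each).

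*Nmb*, the precursor of neuromedin B, had 1.19, 1.00, 2.35 and 1.16 CPM at 0 ppm, against 2.10, 1.33, 1.39 and 1.50 CPM at 50 ppm. Control replicate 3 was the highest of the 8 brains, and the log2 fold change was 0.14 (SE 0.28). Of the exon length of *Nmb*, 20.6% is shared with *Sec11a* on the same strand, so part of its reads could not be assigned. *Nppc*, the precursor of C-type natriuretic peptide, had 0.990, 1.38, 1.73 and 1.59 CPM at 0 ppm, against 2.42, 1.62, 1.50 and 1.24 CPM at 50 ppm. It was highest in 50 ppm replicate 1 and lowest in 0 ppm replicate 1, with a log2 fold change of 0.26 (SE 0.25). *Ucn3* and *Nmu* held too few counts to bound a difference, with 95% intervals of -0.55 to 1.93 and -1.24 to 1.862 on the log2 scale.

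The classical peptides of forebrain neurons showed no shared direction: 5 of 8 had a log2 fold change above 0, and the median was 0.03. In edgeR, 0 of 8 had an unadjusted p under 0.05, against 3.75% of all genes tested. *Npy*, the precursor of neuropeptide Y, had 24.3, 23.2, 17.7 and 21.5 CPM at 0 ppm, against 24.1, 28.2, 26.0 and 22.5 CPM at 50 ppm. Control replicate 3 was the lowest brain, and exposed replicates 2 and 3 the highest. The log2 fold change was 0.22 (SE 0.11, 95% interval -0.01 to 0.45), with an unadjusted edgeR p of 0.0572 and a Benjamini-Hochberg adjusted p of 0.999.

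*Sst* had 62.8, 66.7, 80.8 and 88.2 CPM at 0 ppm, against 75.8, 77.1, 65.3 and 74.0 CPM at 50 ppm. All exposed brains lay within the control range, and the log2 fold change of -0.03 (SE 0.10) had a 95% interval of -0.24 to 0.18. *Penk* had 20.6, 34.7, 31.4 and 24.6 CPM at 0 ppm, against 28.9, 37.3, 20.7 and 31.7 CPM at 50 ppm, with a log2 fold change of 0.09 (SE 0.16). Of its exon length, 14.3% lies opposite another gene. Its level varied as much within a dose as across doses.

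*Pdyn*, the precursor of the dynorphins, *Tac1*, the precursor of substance P, *Pnoc*, the precursor of nociceptin, and *Cck* had log2 fold changes between -0.08 and 0.05. Their standard errors lay between 0.13 and 0.16. *Vip*, the precursor of vasoactive intestinal peptide, had 0.575 ± 0.301 and 0.628 ± 0.286 CPM (SD, n = 4 each).

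The 4 granins were the most even group. *Scg2* encodes secretogranin II and had 146, 182, 244 and 208 CPM at 0 ppm, against 186, 226, 184 and 219 CPM at 50 ppm. *Chga* encodes chromogranin A and had 94.7, 91.1, 131 and 103 CPM at 0 ppm, against 105, 118, 108 and 98.8 CPM at 50 ppm. For both genes the exposed brains lay inside the control range.

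*Chgb* encodes chromogranin B and had 118, 128, 149 and 131 CPM at 0 ppm, against 134, 146, 138 and 135 CPM at 50 ppm. *Vgf*, which encodes the precursor of several peptides induced by nerve growth factor, had 52.2, 54.4, 75.8 and 65.4 CPM at 0 ppm, against 64.3, 70.5, 58.8 and 64.7 CPM at 50 ppm. Control replicate 3 was the highest brain for each of the 4. The log2 fold changes were between 0.03 and 0.07, and the widest 95% interval, that of *Scg2*, ran from -0.18 to 0.31. Without 0 ppm replicate 1, 3 of the 4 were below 0.

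Several of these genes are textbook targets of cAMP signalling, and their promoters were searched for the cAMP response element TGACGTCA, a palindrome that reads alike on both strands. RefSeq promoters (GRCm38.p6, 250 bases before to 50 after each start) were at hand for 29 of the 38 genes. *Kiss1*, whose expression was not analysed, was among these 29. The element was in 5 of 29 (17.2%), against 2.03% of the 27025 genes with a promoter. Its shorter form TGACG, on either strand and including its matches inside the longer element, was in 17 of 29 (58.6%), against 23.0%. The 5 genes were *Sst*, *Cartpt*, *Ucn*, *Scg2* and *Chgb*. A match is a description of the sequence and no evidence of binding. Shown here are 4 of them, as 5′ to 3′ windows of 110 bases on the strand of the gene, from 130 to 21 bases before the start, with the element in capitals, to show that precursors with dissimilar levels carry the same letters:
*Sst* (chr16:23890865-23890974, minus strand): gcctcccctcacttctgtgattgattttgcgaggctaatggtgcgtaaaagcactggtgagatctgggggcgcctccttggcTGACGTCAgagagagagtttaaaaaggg
*Scg2* (chr1:79440047-79440156, minus strand): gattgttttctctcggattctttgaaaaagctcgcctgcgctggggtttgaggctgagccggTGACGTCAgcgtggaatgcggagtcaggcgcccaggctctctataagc
*Chgb* (chr2:132781512-132781621, plus strand): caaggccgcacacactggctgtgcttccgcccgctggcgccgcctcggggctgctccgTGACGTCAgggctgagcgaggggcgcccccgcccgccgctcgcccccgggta
*Cartpt* (chr13:99900704-99900813, minus strand): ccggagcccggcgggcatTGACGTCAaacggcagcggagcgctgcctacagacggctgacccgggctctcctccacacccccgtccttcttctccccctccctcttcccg

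The element began 48 bases before the start in *Sst*, 68 in *Scg2*, 72 in *Chgb* and 112 in *Cartpt*. These 4 genes ranged from 1.75 (*Cartpt*) to 102 CPM per kb (*Sst*), and their log2 fold changes from -0.03 (*Sst*) to 0.28 (*Cartpt*). The promoters of *Pmch* and *Hcrt* did not hold these letters in the 300 bases searched, and those of *Nts* and *Calca* held the shorter form alone.

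Single brains set much of the variation. Control replicate 3 lay above the mean of the 8 brains in 32 of 35 genes and was the highest brain in 16, among them all 4 granins and 7 of 14 hypothalamic genes. In the hypothalamic group it was above the mean in 14 of 14, with a median deviation of 0.60 on the log2 scale. Control replicates 1 and 2 were each the lowest brain in 11 genes, and control replicate 2 was below the mean in 14 of 14 hypothalamic genes, with a median deviation of -0.53.

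The median spread between brains of one dose was larger for hypothalamic precursors than over all tested genes with a mean of at least 1 CPM. The median coefficient of variation in the hypothalamic group was 39.9% at 0 ppm and 35.2% at 50 ppm, and in the brainstem and sensory group 40.4% and 27.0%. It was 24.7% and 10.8% for the forebrain peptides and 17.4% and 7.37% for the granins. Over the 14602 tested genes with a mean of at least 1 CPM it was 9.35% and 9.28%. The peptide groups were not filtered by level, and many of their genes lie below 1 CPM, where counting error alone adds to the spread. No comparison at matched level was made.

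**Figure D4:**
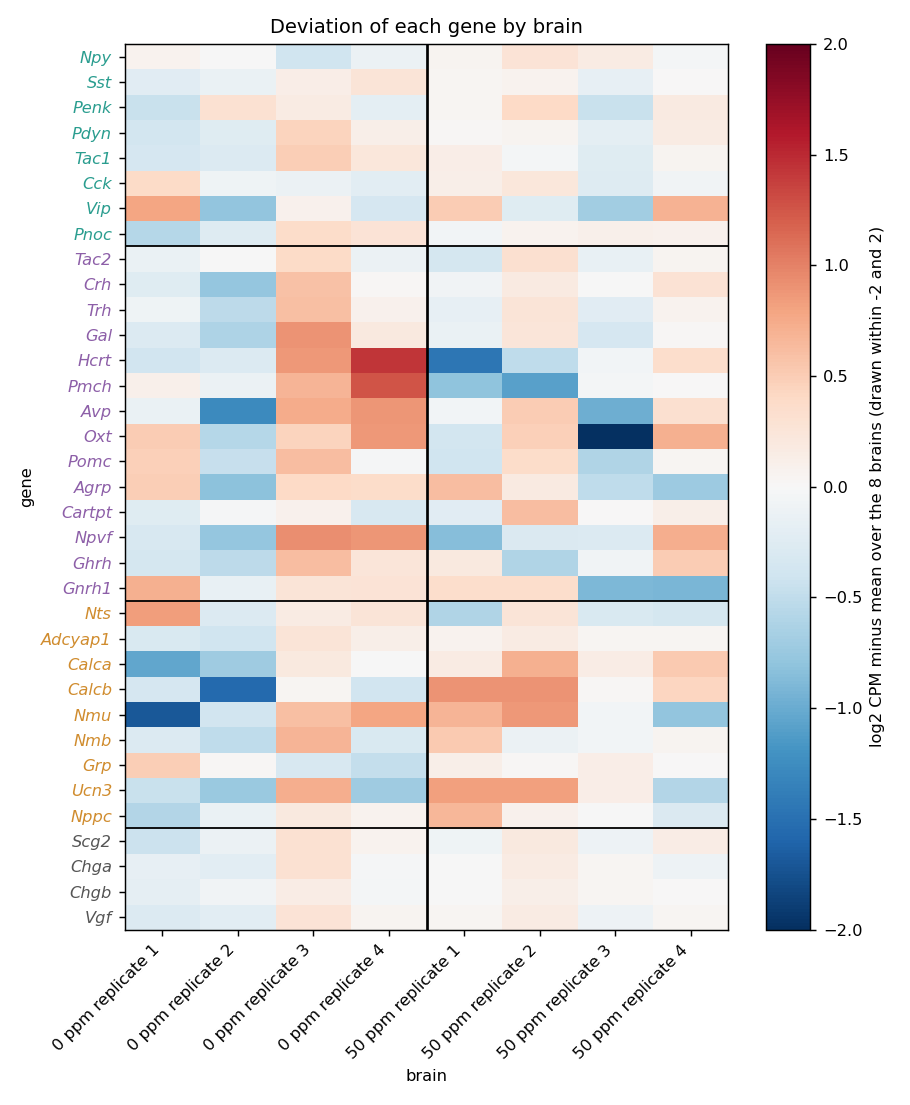
Deviation of each of the 35 tested genes from its mean over the 8 brains, in log2 CPM (red, above; blue, below; colours end at 2), with genes grouped by role and brains in columns, controls left of the line. The column of 0 ppm replicate 3 is above the mean in 32 of 35 genes, and that of 0 ppm replicate 2 is above it in 2.

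The enzymes that mature the precursors include the convertases *Pcsk1* and *Pcsk2*, *Cpe* and the amidating enzyme *Pam*. Among 23 tested, none had an unadjusted p under 0.05 in edgeR or DESeq2. In edgeR, 3.75% of all genes tested did, so a list this short could hold few or none. Of the 23 enzyme genes, 13 had a log2 fold change above 0 and 10 below. The values lay between -0.19 and 0.20, and the median was 0.01. The granule and release machinery included genes such as *Cadps*, *Scg3* and *Syt7*. It had 0 of 25 at an unadjusted p under 0.05 in both tools, against 3.75% of all genes tested in edgeR. Its median log2 fold change was 0.05, with values between -0.14 and 0.22. Without 0 ppm replicate 3, 4 of the 25 genes passed the unadjusted p, and the share of all genes in that fit is not given here.

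Of 53 receptor genes tested with edgeR, 0 had a Benjamini-Hochberg adjusted p under 0.05, and 5 (9.43%) had an unadjusted p under 0.05, against 3.75% of all genes tested. Of these, 4 were higher at 50 ppm (2.31% of all genes) and 1 was lower (1.44%). *Hcrtr1*, a receptor of the orexins, averaged 2.99 ± 0.678 CPM in control and 4.36 ± 0.785 CPM in exposed brains (SD, n = 4 each), a log2 fold change of 0.55 (SE 0.19). *Calcrl*, the receptor that forms the CGRP receptor with *Ramp1*, had 12.3 ± 2.85 and 16.0 ± 3.03 CPM, a log2 fold change of 0.37 (SE 0.16). *Ntsr2*, a neurotensin receptor, had 3.09 ± 0.701 and 4.16 ± 0.677 CPM, a log2 fold change of 0.42 (SE 0.19).

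*Nmbr*, the receptor of neuromedin B, had 3.14 ± 0.524 and 2.30 ± 0.470 CPM (SD, n = 4 each), a log2 fold change of -0.45 (SE 0.20). The remaining gene, *Avpr2*, had 0 counts in the 4 controls and 1 count in each exposed brain, under the limit of 3 counts in every library. Opposite another gene lies 15.6% of the exon length of *Nmbr* and 81.3% of that of *Avpr2*. *Avpr2* was also among the 2 receptor genes (3.77%, against 2.09% of all genes tested) whose doses did not overlap. The other was *Npffr2*, with 8, 7, 4 and 8 counts at 0 ppm and 9, 19, 9 and 8 counts at 50 ppm, whose doses lay apart only after scaling to library size. The number of receptor genes at an unadjusted p under 0.05 was 1 without 0 ppm replicate 4, 2 without 0 ppm replicate 2, and 2 without 50 ppm replicate 4. It was 3 when any 1 of 50 ppm replicates 1, 2 and 3 was left out.

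Further receptors for the products of *Pmch*, *Hcrt*, *Nts*, *Calca* and *Calcb*, named after their values had been seen, did not all differ alike. *Mchr1*, the receptor of MCH in rodents, had 5.37 ± 1.65 and 4.35 ± 0.507 CPM (SD, n = 4 each), a log2 fold change of -0.30 (SE 0.19). *Hcrtr2*, *Ntsr1* and *Ramp1* had log2 fold changes of 0.05 (SE 0.15), -0.03 (SE 0.14) and 0.24 (SE 0.12).

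Of 27 further peptide genes tested with edgeR, 0 had a Benjamini-Hochberg adjusted p under 0.05, and 5 (18.5%) had an unadjusted p under 0.05, against 3.75% of all genes tested. Of these 5, 4 were low in counts, and 2 of the 27 genes (7.41%, against 2.09% of all genes tested) did not overlap between doses. *Uts2b*, which encodes a relative of urotensin II, had 4, 1, 2 and 3 counts at 0 ppm and 19, 17, 7 and 16 counts at 50 ppm, without overlap. *Sct*, the precursor of secretin, had 7, 6, 13 and 5 counts at 0 ppm and 3, 3, 2 and 2 counts at 50 ppm, also without overlap.

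*Nms* and *Rln3* had at most 14 and 15 counts in any brain, with the higher means at 50 ppm. *Cbln1*, which encodes a synapse organizer of cerebellar granule cells, was the only well covered gene of the 5, with 60.3 ± 11.4 and 71.8 ± 5.57 CPM (SD, n = 4 each) and a log2 fold change of 0.25 (SE 0.11). DESeq2 gave 3 genes of this list at an unadjusted p under 0.05. A filter of at least 10 counts in at least 4 libraries gave 1. That filter removed *Uts2b*, *Sct*, *Nms* and *Rln3* before testing, so it did not retest them.

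Tissue that could be removed with the brain was also measured. Pituitary markers summed to between 2.94 and 4.07 CPM at 0 ppm and between 3.48 and 4.74 CPM at 50 ppm, mostly *Tbx19*. Of 6 tested, 4 were above 0 and 1 had an unadjusted edgeR p under 0.05, against 3.75% of all genes tested. That gene was *Cga*, with 7, 0, 0 and 0 counts at 0 ppm and 11, 13, 4 and 5 counts at 50 ppm. *Tshb* had 3, 0, 0 and 0 counts at 0 ppm and 3, 4, 3 and 1 counts at 50 ppm. *Fshb* and *Ghrhr* were listed at 0, and *Gh* and *Prl* had at most 1 count in any brain. Choroid plexus and blood markers had 0 of 8 and 0 of 7 genes at an unadjusted p under 0.05, in edgeR, and overlapped between doses.

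**Figure D5:**
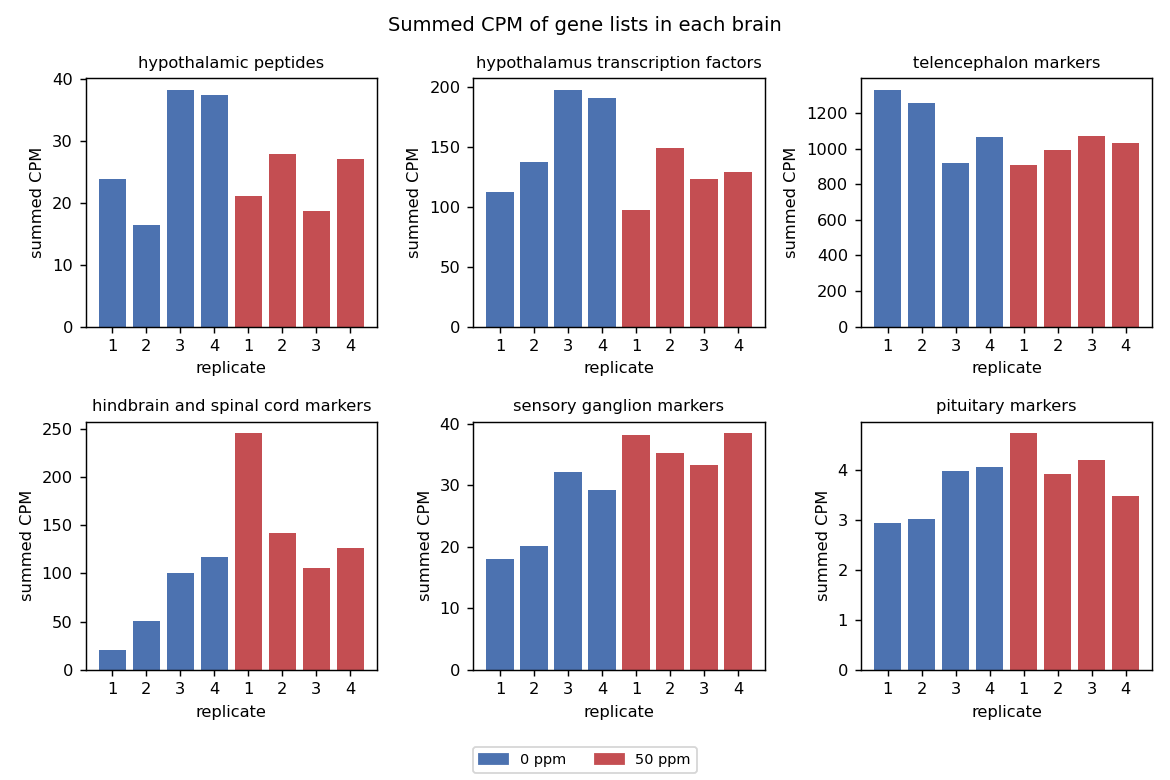
Summed CPM of the 14 hypothalamic peptide precursors and of 5 marker lists in each brain (blue, 0 ppm replicates 1 to 4; red, 50 ppm replicates 1 to 4); each axis starts at 0. The hypothalamic peptide and transcription factor sums are both highest in 0 ppm replicates 3 and 4, and the hindbrain sum is lowest in 0 ppm replicates 1 and 2, at 20.5 and 50.3 CPM.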

How the data were processed

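The values the authors deposited are unnormalized counts of reads for each gene in 8 newborn B × C female whole brains, held in 2 tables, for reads aligned to the B genome (GRCm38, Ensembl 87) and to the C genome. According to the paper's methods, the authors trimmed 10 bases, aligned with STAR and counted with HTSeq. Versions and the strand setting are not given in the sources used here. The tests used the B table, and the C table could be paired by name for *Pmch* alone.

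A gene was tested only if at least 3 of the 8 libraries held a count for it, after the 2/3 limit on zeros in the paper's methods. Counts were tested with edgeR 4.0.16 (TMM, glmQLFit, glmQLFTest, dose as the only term) in R 4.3.3, with Benjamini-Hochberg adjustment over all genes. The exact two-sided permutation test used the 70 labellings of log2 CPM of a single gene. Names and exon lengths were taken from GENCODE (GRCm38) for 49326 of 49585 identifiers. Of 265 listed genes, 262 were found. The alternatives were DESeq2 1.42.0, its size factors, 2 filters, a robust fit, limma-voom (limma 3.58.1), the C alignment, and each library left out.

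Total counts lay between 22916434 and 30708087 per library, and replicates of a dose differed by more than sampling noise (chi-square per degree of freedom between 9.28 and 22.7). The code was checked on simulated counts with known changes, where the share of false calls lay above the adjusted p threshold of 0.05.

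The 38 genes and all lists were chosen with earlier results of these data known. Each brain's value is given for genes with an unadjusted p under 0.05 or doses that did not overlap, for the 10 largest log2 fold changes at a mean of at least 1 CPM, and for the 8 highest CPM per kb. Genes of other lists are named by the same p or overlap. Other genes were named after their values had been seen. Some single marker genes are not reported here.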

Additional observations from a re-analysis of the deposited data

Results flagged for a closer look

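In 4 of 70 sets of 4 brains (35 genes at 2 doses), 1 brain stood apart from the other 3 by Dixon's criterion, where chance gives about 1 in 20 sets, or 3.5. *Cck* was high in 0 ppm replicate 1, at 28.7 CPM, against 19.1 to 20.7 CPM in the other controls. *Agrp* was low in 0 ppm replicate 2, at 0.446 CPM, against 1.08 to 1.19 CPM. *Nmb* was high in 0 ppm replicate 3, at 2.35 CPM, against 1.00 to 1.19 CPM. *Ucn3* was high in 0 ppm replicate 3, at 0.294 CPM (9 counts), against 0.0744 to 0.102 CPM.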

How the results depend on the processing

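No paired analysis was possible because the labels give the 2 doses no shared replicate number and each pup came from its own litter. Of the 15 alternatives, the C alignment covered *Pmch* alone. In the other 14, the number of genes with an adjusted p under 0.05 stayed at 0, except 1, *Pmch*, without a filter on low counts. Its adjusted p there was 0.0368, against 0.435 to 1.00 in the other alternatives, and the cause was not tested. The number at an unadjusted p under 0.05 lay between 3 and 6, and the number without overlap was 0 under both other scalings. The median log2 fold change lay between -0.08 and 0.15 when single libraries were left out, from -0.08 without 0 ppm replicate 1 to 0.15 without 0 ppm replicate 3.

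Of 35 genes, 16 kept their sign in every alternative. Over all 15 alternatives, 40 of 488 values had the other sign, and all 40 came from fits with a single library left out. The log2 fold changes of 19 genes changed sign in this way. These ranged from -0.52 to 0.042 for *Avp*, -0.078 to 0.15 for *Cck*, -0.028 to 0.16 for *Chga*, -0.072 to 0.41 for *Crh*, -0.41 to 0.16 for *Gal*, -0.21 to 0.26 for *Ghrh*, -0.028 to 0.32 for *Grp*, -0.029 to 0.50 for *Nmb*, -0.10 to 0.74 for *Nmu*, -0.12 to 0.17 for *Pdyn*, -0.039 to 0.24 for *Penk*, -0.10 to 0.20 for *Pnoc*, -0.051 to 0.19 for *Scg2*, -0.11 to 0.059 for *Sst*, -0.20 to 0.10 for *Tac1*, -0.21 to 0.080 for *Tac2*, -0.24 to 0.15 for *Trh*, -0.015 to 0.17 for *Vgf* and -0.13 to 0.49 for *Vip*. None of these 19 had an unadjusted p under 0.05 in the main analysis. Leaving out single libraries gave 0 to 1 processing enzymes, 0 to 4 machinery genes, 1 to 6 receptors and 3 to 6 other peptide genes at an unadjusted p under 0.05. The share of all genes in each of these fits is not given here. For the other peptide genes, 5 in the main analysis, DESeq2 gave 3. The filter of at least 10 counts in at least 4 libraries gave 1, because it removed *Uts2b*, *Sct*, *Nms* and *Rln3* before testing. Levels under 3 counts, or 0.0980 to 0.132 CPM, could not be told from 0 at this depth.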
